A study of Mus musculus with 10 samples.

Results

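The genes described here encode the enzymes of cholesterol synthesis, the sterol-sensing SREBP machinery that controls them, and SREBP targets in fatty acid synthesis and sterol transport. They are 29 listed symbols among the 54456 genes of the table, taken by name and not by value. All 29 were found, and all had a mean of at least 10 normalized counts over the 7 libraries, the level that left 15240 genes for testing. Of the 29 genes, 8 act between acetyl-CoA and squalene, 10 act between squalene and cholesterol, 5 are the SREBP factors and the proteins that hold or carry them, 5 make fatty acids, and Stard4 moves sterols between membranes.

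Cells build cholesterol from acetyl-CoA through mevalonate, isoprenoid diphosphates, squalene and lanosterol, and cultured stem cells can also take it up from serum lipoproteins. When membrane sterols are scarce, SCAP carries the SREBP precursors from the endoplasmic reticulum to the Golgi, where proteases release a fragment that enters the nucleus and activates these genes at sterol regulatory elements, usually beside NF-Y and Sp1 sites. When sterols are plentiful, INSIG proteins retain SCAP. The control step lies after translation, so the mRNA levels of the SREBP genes do not measure the cleaved factors.

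The study concerns X-linked dystonia parkinsonism, a disease of an SVA retrotransposon insertion in an intron of TAF1, whose product is the largest TFIID subunit and acts in general transcription initiation. Bulk RNA was sequenced from C57BL/6J mouse embryonic stem cells cultured on gelatin with 15% serum, LIF, 3 µM CHIR99021 (a GSK3 inhibitor) and 1 µM PD0325901 (a MEK inhibitor). The conv-dSVA_F&D line carries both SVA deletions, conv-dSVA_F and conv-dSVA_D carry the deletion in their names, and each is represented by 2 libraries, against 1 library of the wild-type line MK6. All 3 edited lines share a loxP site in Taf1 intron 24, a human-derived TAF1 part labelled mousified and converted, Cas9 plasmids and the Cre plasmid pCAGiCre, none of which the wild type is labelled with. The labels give no clone, so genotype and line cannot be told apart, and nothing says that replicates came from separate cultures, so each p-value reflects only the variation among the sequenced samples, part or all of it possibly technical.

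The promoters of Hmgcs1 and Mvd are printed because their levels differed between lines, and that of Mvk because it encodes a step between them. The lines below give the 250 bases before the RefSeq start site (GRCm38.p6), 5′ to 3′ on the gene's strand, with motif letters in capitals: TCACCCCAC, the core of the sterol regulatory element, CCAAT, the NF-Y box, and GGGCGG, the Sp1 GC box, each searched on both strands so that ATTGG and CCGCCC mark the opposite strand.
Hmgcs1, chr13:119690101-119690350, plus strand: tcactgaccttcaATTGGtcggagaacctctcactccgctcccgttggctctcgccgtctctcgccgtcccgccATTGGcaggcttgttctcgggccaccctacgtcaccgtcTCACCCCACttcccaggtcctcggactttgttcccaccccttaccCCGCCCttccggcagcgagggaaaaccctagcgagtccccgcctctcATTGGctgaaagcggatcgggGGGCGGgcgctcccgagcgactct
Mvd, chr8:122443423-122443672, minus strand: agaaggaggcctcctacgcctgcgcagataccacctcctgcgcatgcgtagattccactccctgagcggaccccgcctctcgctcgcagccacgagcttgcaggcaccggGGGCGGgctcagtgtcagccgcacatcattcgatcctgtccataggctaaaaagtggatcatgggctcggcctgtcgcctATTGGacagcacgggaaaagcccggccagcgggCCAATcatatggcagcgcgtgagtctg
Mvk, chr5:114444019-114444268, plus strand: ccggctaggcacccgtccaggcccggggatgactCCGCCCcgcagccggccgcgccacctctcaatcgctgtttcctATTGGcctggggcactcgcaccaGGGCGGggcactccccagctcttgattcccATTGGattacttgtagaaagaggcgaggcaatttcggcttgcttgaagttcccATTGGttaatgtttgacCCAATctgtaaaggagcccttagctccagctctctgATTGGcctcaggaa

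Of the 29 genes, 23 had a RefSeq promoter window of 300 bases (250 before and 50 after the start), 31 windows in all, and Fdft1, Fdps, Scd1, Scd2, Sqle and Stard4 had none in the table. CCAAT was found in 21 of the 31 windows, a share of 67.7% against 37.4% of all 32851 windows, and GGGCGG in 24 of 31, 77.4% against 35.7%. TCACCCCAC was found once, in Hmgcs1, 137 bases before the start, and is present in 0.551% of all windows. These are matches of letters in a fixed window and say nothing of binding.

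Reads in genes numbered between 16588467 in conv-dSVA_F&D replicate 2 and 26562418 in conv-dSVA_D replicate 2, and the fewest reads of any listed gene in any library were 147, for Insig2. Taf1, the edited gene, stood at 1116 and 1088 normalized counts in the conv-dSVA_F&D libraries, 501 and 589 in those of conv-dSVA_F, 362 and 418 in those of conv-dSVA_D, and 2898 in the wild type. All 10 embryonic stem cell markers passed the low-value filter, and Pou5f1 stood at 18394 to 24255 normalized counts. Nanog, another pluripotency factor of that list, was lower in conv-dSVA_F&D (16246 to 19514) than conv-dSVA_D (27769 to 28144; -0.65, adjusted p = 0.0282), the comparison of the main Hmgcs1 call. Summed primitive and visceral endoderm markers, 8 of 13 passing, were 261 to 341 in conv-dSVA_F&D, 152 to 423 in conv-dSVA_F, 138 to 153 in conv-dSVA_D and 153 in the wild type, with Ttr, Apoa1 and Apoa4 between 0 and 8.64. Of the 8, limma called 0 in any comparison, and Dab2 and Gata4 were higher at an unadjusted p under 0.05 in conv-dSVA_F&D than conv-dSVA_D. Summed fibroblast and feeder markers, of which 4 of 10 passed the low-value filter, were 119 to 198 in conv-dSVA_F&D, 119 to 139 in conv-dSVA_F, 80.8 to 86.4 in conv-dSVA_D and 347 in the wild type. Summed trophoblast markers, 8 of 11 passing, were 1833 to 2650 in conv-dSVA_F&D, 2484 to 5504 in conv-dSVA_F, 1102 to 1210 in conv-dSVA_D and 1916 in the wild type. Between conv-dSVA_F&D and conv-dSVA_D, limma called 3 of those 8 higher and 0 lower, against 1.96% and 1.21% of all tested genes. Summed neural markers, 7 of 10 passing, were 1747 to 2612 in conv-dSVA_F&D and 2598 to 2817 in conv-dSVA_F. They were 1833 to 2291 in conv-dSVA_D and 2352 in the wild type. In the same comparison limma called 2 of those 7 higher and 0 lower. Between conv-dSVA_F and conv-dSVA_D it called 2 trophoblast and 1 neural marker higher and 0 lower, against 1.08% and 0.262% of all tested genes. Between conv-dSVA_F&D and conv-dSVA_F it called 0 of either list, against 3.92%. Chromosome-wide shifts also touched listed genes. Against the wild type, the median log2 level of chromosome 8 was 0.05 and 0.03 in the conv-dSVA_F&D libraries, 0.67 and 0.49 in those of conv-dSVA_F, and 0.08 and 0.29 in those of conv-dSVA_D. That of chromosome 18 was 0.49 in conv-dSVA_F&D replicate 2 and -0.07 to -0.02 in the other converted libraries. Chromosome 6 holds Nanog and none of the listed genes. Its median was 0.01 and -0.01 in the conv-dSVA_F&D libraries, 0.41 and 0.38 in those of conv-dSVA_F, and 0.12 and 0.12 in those of conv-dSVA_D. The part of that shift in the Nanog difference was not tested.

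Levels within the pathway were widely spread. Per kilobase of annotated exon, the highest mean over the 7 libraries was 2381 normalized counts for Acly, the enzyme that makes cytosolic acetyl-CoA from citrate, followed by 1486 for Scd2, 1105 for Fasn, 839 for Hmgcs1 and 806 for Insig1. The lowest was 47.6 for Hsd17b7, a reductase that takes part in removing methyl groups from the sterol ring. Together the 29 genes took 0.308% to 0.317% of gene reads in conv-dSVA_F&D, 0.264% to 0.317% in conv-dSVA_F, 0.277% to 0.302% in conv-dSVA_D and 0.249% in the wild type. The conv-dSVA_F range covers those of both other converted lines, which do not overlap, and the wild-type share is the lowest. By summed normalized counts, conv-dSVA_F replicate 1 was the lowest library (55808), below the wild type (57897). The 5 fatty acid genes alone made up 0.132% of gene reads in the wild type. For the 8 genes between acetyl-CoA and squalene, the wild-type share was 0.0504%, within the conv-dSVA_F&D range (0.0490% to 0.0513%) and above the other converted libraries.

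The listed genes that limma called between lines were Hmgcs1, Mvd and Msmo1, and a gene not called may still differ. Between conv-dSVA_F&D and conv-dSVA_D, limma called 1 of 29 genes at an adjusted p under 0.05, Hmgcs1, against 3.16% of all tested genes (1.96% higher and 1.21% lower). Between conv-dSVA_F&D and conv-dSVA_F it called 3, with Hmgcs1 higher and Mvd and Msmo1 lower, against 3.92% of all tested genes (1.71% higher and 2.21% lower). Between conv-dSVA_F and conv-dSVA_D it called Msmo1 alone, higher, against 1.35% of all tested genes (1.08% higher and 0.262% lower). Between the converted lines and the wild type it called Hmgcs1 alone, lower, against 1.15% of all tested genes (0.623% higher and 0.525% lower). The F test for any difference among the 3 converted lines called Hmgcs1, Mvd and Msmo1, against 5.58% of all tested genes. A count of 1 is the smallest above 0 that the list can give, so these counts are descriptions of single genes and not of the pathway. With edgeR the called genes were the same, against 3.04%, 3.63%, 1.48%, 2% and 5.48% of all genes in the same order of comparisons. DESeq2 called 3, 6, 3, 2 and 7 of the 29 genes, against 7.9%, 9.63%, 5.08%, 6.81% and 14% of the genes it tested.

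The median log2 difference of the 29 genes was 0.05 between conv-dSVA_F&D and conv-dSVA_D, 0.04 between conv-dSVA_F&D and conv-dSVA_F, 0.01 between conv-dSVA_F and conv-dSVA_D and 0.10 between converted and wild type. The medians over all tested genes were between -0.01 and 0.00. At an unadjusted p under 0.05 there were 6, 7, 4 and 9 of the 29 genes in these comparisons in the same order, against 19.8%, 20.7%, 16.7% and 18.7% of all tested genes. The 95% interval lay within a 2-fold change either way for 26, 25, 27 and 26 of the 29 genes.

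**Figure D1:**
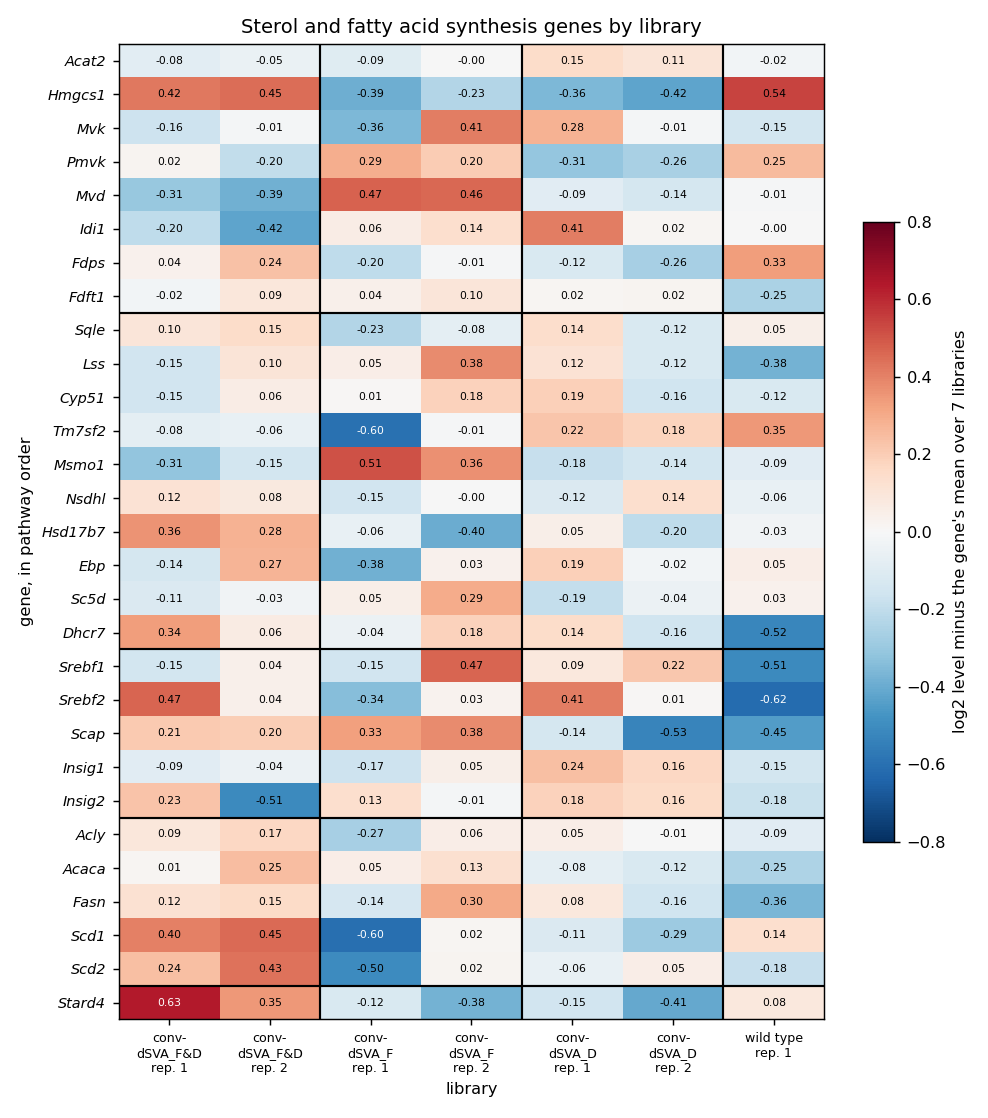
Log2 level of each of the 29 genes in each of the 7 libraries (columns), minus that gene's mean over the libraries, with genes in pathway order and black lines between steps and between lines. Hmgcs1 is raised in both conv-dSVA_F&D libraries and the wild type, Mvd and Msmo1 in both conv-dSVA_F libraries, and few other rows change by line as a block.

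The clearest difference lay in Hmgcs1, a gene of the early mevalonate steps. Hmgcs1 (chr13:119690379-119708260, plus strand, protein coding) encodes the cytosolic HMG-CoA synthase, which makes the precursor of mevalonate, and is a textbook SREBP target. Its level was 4944 and 5036 normalized counts in the conv-dSVA_F&D libraries, 2824 and 3143 in those of conv-dSVA_F, 2883 and 2762 in those of conv-dSVA_D, and 5374 in the wild type. The lines carrying a single deletion lay together, well below both conv-dSVA_F&D libraries and the wild type, with no overlap. Hmgcs1 was higher in conv-dSVA_F&D than conv-dSVA_D by 1.77-fold (log2 difference 0.82 ± 0.11 SE, adjusted p = 0.00961) and higher than in conv-dSVA_F by 1.67-fold (0.74 ± 0.11, adjusted p = 0.0134). It did not differ detectably between conv-dSVA_F and conv-dSVA_D (0.08 ± 0.11, adjusted p = 0.779, 95% interval -0.17 to 0.32). Averaged over the converted lines, Hmgcs1 was below the wild type (log2 difference -0.63 ± 0.12, adjusted p = 0.043), and each of the 6 converted libraries was lower.

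The Hmgcs1 call against conv-dSVA_D ended without conv-dSVA_D replicate 1 (adjusted p = 0.106) or replicate 2 (0.0825), and that against conv-dSVA_F ended without conv-dSVA_F replicate 1 (0.150), while the differences stayed between 0.67 and 0.85. The call against the single wild-type library ended without either conv-dSVA_F library (0.0853 and 0.0872), without either conv-dSVA_D library (0.116 and 0.0928) and with chromosome medians set equal (-0.55, adjusted p = 0.0549). The summed 2-cell-like markers, all 8 of them tested, also differed by line. They stood at 394 to 593 normalized counts in conv-dSVA_F&D, 484 to 842 in conv-dSVA_F, 69.1 to 80.8 in conv-dSVA_D and 2036 in the wild type. Limma called 4 of the 8 higher and 0 lower in conv-dSVA_F&D than conv-dSVA_D, against 1.96% and 1.21% of all tested genes. It also called 4 higher and 0 lower in conv-dSVA_F than conv-dSVA_D, against 1.08% and 0.262%. Between conv-dSVA_F&D and conv-dSVA_F, limma called 0 of the 8, against 3.92% of all tested genes. Between converted and wild type it called 3 lower and 0 higher, against 0.525% and 0.623%. The part of these markers, of Nanog and of the endoderm, trophoblast and neural markers in the Hmgcs1 differences was not tested.

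The order of the Hmgcs1 means, wild type above conv-dSVA_F&D, then conv-dSVA_F, then conv-dSVA_D, is the order of Taf1. Of the 29 genes, Hmgcs1 and Fdps had it, as did 5.77% of all tested genes. Both conv-dSVA_F&D libraries and the wild type lay above all 4 libraries with a single deletion for Hmgcs1, Fdps, Scd1 and Stard4, a pattern shared by 7.30% of all tested genes.

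In the comparison of conv-dSVA_F&D with conv-dSVA_D, limma called none of the other listed mevalonate genes (Idi1 had an unadjusted p under 0.05), and Fdps alone of them shared the Hmgcs1 order of means. Idi1, the isomerase that makes dimethylallyl diphosphate, had 282 and 242 normalized counts in the conv-dSVA_F&D libraries, 338 and 356 in those of conv-dSVA_F, 432 and 328 in those of conv-dSVA_D, and 324 in the wild type. Both conv-dSVA_F&D libraries were the lowest, yet the difference from conv-dSVA_D of -0.52 ± 0.21 did not pass (adjusted p = 0.203). Fdps, which makes farnesyl diphosphate, had 658 and 756 in the conv-dSVA_F&D libraries, 557 and 638 in those of conv-dSVA_F, 590 and 535 in those of conv-dSVA_D, and 810 in the wild type, with a log2 difference of 0.33 ± 0.16 between conv-dSVA_F&D and conv-dSVA_D (adjusted p = 0.290). Pmvk, the kinase of phosphomevalonate, was between 504 and 766 normalized counts, with conv-dSVA_F above conv-dSVA_D by 0.53 ± 0.15 log2 (adjusted p = 0.129). Mvk, the mevalonate kinase whose promoter is printed above, ranged between 360 and 614, and both extremes were conv-dSVA_F libraries. Acat2, the thiolase that joins acetyl-CoA units (1521 to 1801), and Fdft1, squalene synthase (1710 to 2179), varied least, with differences among the converted lines between -0.20 and 0.05. Acat2, Idi1 and Fdft1 have near-identical copies in the annotation, so their counts may share reads with those copies. Fdft1 also overlaps Ctsb, a protease gene on the opposite strand, and since the strand setting of the counting is not given, reads of the 2 genes may not have been told apart.

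Mvd (chr8:122433601-122443422, minus strand, protein coding) encodes the decarboxylase that turns diphosphomevalonate into isopentenyl diphosphate. Its level was 580 and 549 normalized counts in the conv-dSVA_F&D libraries, 997 and 986 in those of conv-dSVA_F, 673 and 650 in those of conv-dSVA_D, and 714 in the wild type. Both conv-dSVA_F libraries stood above all others. Mvd was lower in conv-dSVA_F&D than conv-dSVA_F (log2 difference -0.81 ± 0.14, adjusted p = 0.0199), while conv-dSVA_F over conv-dSVA_D, at 0.58 ± 0.14, missed the threshold in limma (adjusted p = 0.0777). With each library's chromosome medians set equal, the difference between conv-dSVA_F&D and conv-dSVA_F was -0.28 (adjusted p = 0.364). The call also ended without conv-dSVA_F replicate 1 (0.176) or 2 (0.0789) and without conv-dSVA_D replicate 1 (0.0518) or 2 (0.0519).

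Among the 10 genes between squalene and cholesterol, Msmo1 alone was called. Msmo1 (chr8:64718139-64733792, minus strand, protein coding) encodes the methyl sterol oxidase that begins removal of the ring methyl groups. Its level was 1628 and 1829 normalized counts in the conv-dSVA_F&D libraries, 2881 and 2604 in those of conv-dSVA_F, 1782 and 1830 in those of conv-dSVA_D, and 1901 in the wild type. As for Mvd, both conv-dSVA_F libraries were above all others and the remaining libraries lay close together. Msmo1 was lower in conv-dSVA_F&D than conv-dSVA_F (-0.67 ± 0.12, adjusted p = 0.0229) and higher in conv-dSVA_F than conv-dSVA_D (0.60 ± 0.12, adjusted p = 0.0475).

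With chromosome medians set equal, these Msmo1 differences were -0.13 (adjusted p = 0.602) and 0.21 (adjusted p = 0.451). Without 1 of the conv-dSVA_F or conv-dSVA_D libraries at a time, the adjusted p ranged between 0.0539 and 0.208 for the first and 0.0986 and 0.408 for the second. Mvd and Msmo1 are the only listed genes on chromosome 8. Over the wild type, Mvd stood at -0.30 and -0.38 in the conv-dSVA_F&D libraries, 0.48 and 0.47 in those of conv-dSVA_F, and -0.08 and -0.14 in those of conv-dSVA_D. Msmo1 stood at -0.22 and -0.06, 0.60 and 0.45, and -0.09 and -0.05 in the same libraries. In conv-dSVA_F both genes lay below the chromosome's own median.

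**Figure D2:**
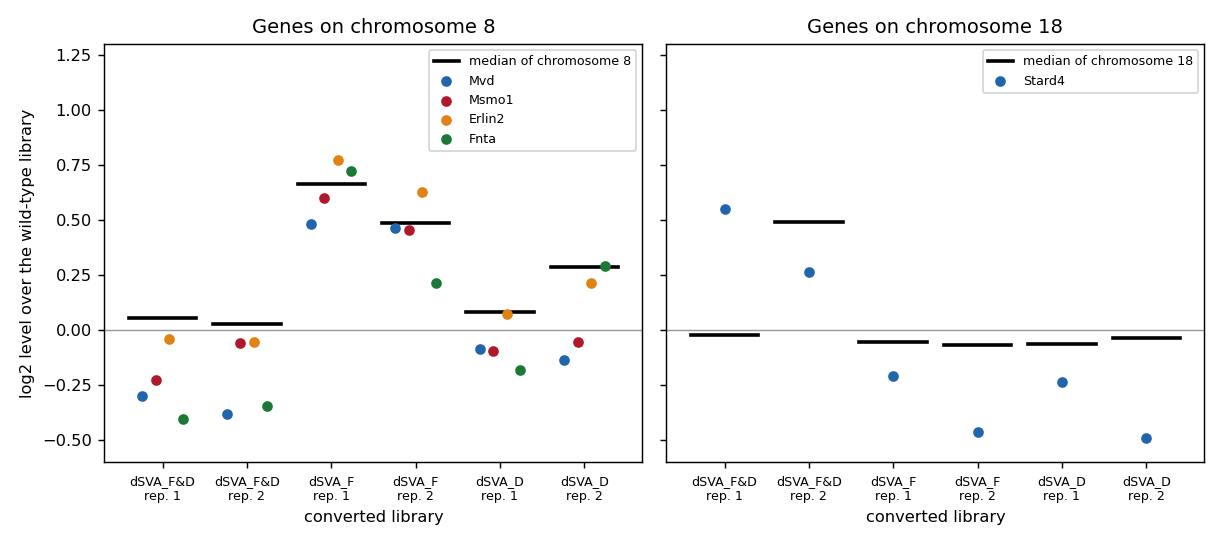
Log2 level over the wild-type library in the 6 converted libraries for chromosome 8 genes (left: Mvd, Msmo1 and the related genes Erlin2 and Fnta) and for Stard4 on chromosome 18 (right), with black bars for the median of that chromosome. The chromosome 8 bars are highest in both conv-dSVA_F libraries, at 0.67 and 0.49, as are all plotted genes except Fnta in replicate 2, and the chromosome 18 bar is raised to 0.49 in conv-dSVA_F&D replicate 2.

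The 9 other genes between squalene and cholesterol had 0 calls in all 4 pairwise comparisons by limma, edgeR or DESeq2. At an unadjusted p under 0.05 stood Hsd17b7 between conv-dSVA_F&D and conv-dSVA_F (0.55 ± 0.23, adjusted p = 0.210), and Dhcr7 and Lss between converted and wild type. Hsd17b7 had 308 and 291 normalized counts in the conv-dSVA_F&D libraries, 230 and 182 in those of conv-dSVA_F, 248 and 208 in those of conv-dSVA_D, and 235 in the wild type, so both conv-dSVA_F&D libraries were the highest. Dhcr7, the reductase that completes cholesterol, had 406 and 336 in the conv-dSVA_F&D libraries, 311 and 365 in those of conv-dSVA_F, 355 and 287 in those of conv-dSVA_D, and 224 in the wild type, below all converted libraries (0.61 ± 0.23, adjusted p = 0.191). Lss, which closes the sterol rings, ranged between 1023 and 1479 in converted libraries against 875 in the wild type (0.44 ± 0.18, adjusted p = 0.214). Sqle, the oxygen-dependent squalene epoxidase, ranged between 1523 and 1982, Cyp51, the lanosterol demethylase, between 1683 and 2151, and Nsdhl, a sterol dehydrogenase on chromosome X, between 379 and 464. Ebp, the sterol isomerase, ranged between 1008 and 1587 and Sc5d, the sterol desaturase, between 391 and 546. Tm7sf2, a sterol reductase, was lowest in conv-dSVA_F replicate 1 (220) and highest in the wild type (422), and it overlaps Vps51 on the same strand, while Cyp51 overlaps Akap9 on the opposite strand.

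The SREBP factors and their control proteins had 0 of 5 genes called in any comparison by limma or edgeR, and at an unadjusted p under 0.05 there were 2 between conv-dSVA_F&D and conv-dSVA_D, 0 between conv-dSVA_F&D and conv-dSVA_F, 1 between conv-dSVA_F and conv-dSVA_D and 3 between converted and wild type, to be read against the 16.7% to 20.7% of all tested genes at that level. Scap, the sterol sensor that escorts SREBP precursors, came closest. It had 1047 and 1039 normalized counts in the conv-dSVA_F&D libraries, 1141 and 1181 in those of conv-dSVA_F, 821 and 629 in those of conv-dSVA_D, and 666 in the wild type. The conv-dSVA_D and wild-type libraries lay below the other 4 without overlap, and conv-dSVA_F exceeded conv-dSVA_D by 0.69 ± 0.16 (adjusted p = 0.0627 in limma, 0.0107 in DESeq2). Between conv-dSVA_F&D and conv-dSVA_D it was 0.54 ± 0.16 (adjusted p = 0.0964).

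Srebf2, whose product is the main SREBP of cholesterol synthesis, had 3640 and 2702 normalized counts in the conv-dSVA_F&D libraries, 2082 and 2686 in those of conv-dSVA_F, 3495 and 2648 in those of conv-dSVA_D, and 1716 in the wild type. The libraries of each line spread as widely as the lines, and all 6 converted libraries were above the wild type (0.72 ± 0.20, adjusted p = 0.105 in limma, 0.0165 in DESeq2). In limma this difference passed without conv-dSVA_F&D replicate 2 (0.79, adjusted p = 0.0462). Srebf1, which overlaps Rai1 on the opposite strand and whose product chiefly drives fatty acid synthesis, had 1112 and 1265 in the conv-dSVA_F&D libraries, 1107 and 1701 in those of conv-dSVA_F, 1307 and 1429 in those of conv-dSVA_D, and 862 in the wild type, again the lowest library (0.60 ± 0.21, adjusted p = 0.161).

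Insig1, which retains SCAP and is itself an SREBP target, had 2332 and 2406 normalized counts in the conv-dSVA_F&D libraries, 2208 and 2565 in those of conv-dSVA_F, 2934 and 2778 in those of conv-dSVA_D, and 2238 in the wild type. Both conv-dSVA_D libraries were the highest, opposite to the low Hmgcs1 of that line, but conv-dSVA_F&D against conv-dSVA_D, at -0.27 ± 0.12, missed the threshold (adjusted p = 0.246). Insig2, its paralog, had 342 and 205 in the conv-dSVA_F&D libraries, 321 and 289 in those of conv-dSVA_F, 332 and 326 in those of conv-dSVA_D, and 259 in the wild type. The conv-dSVA_F&D libraries held both the highest and the lowest value of Insig2.

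**Figure D3:**
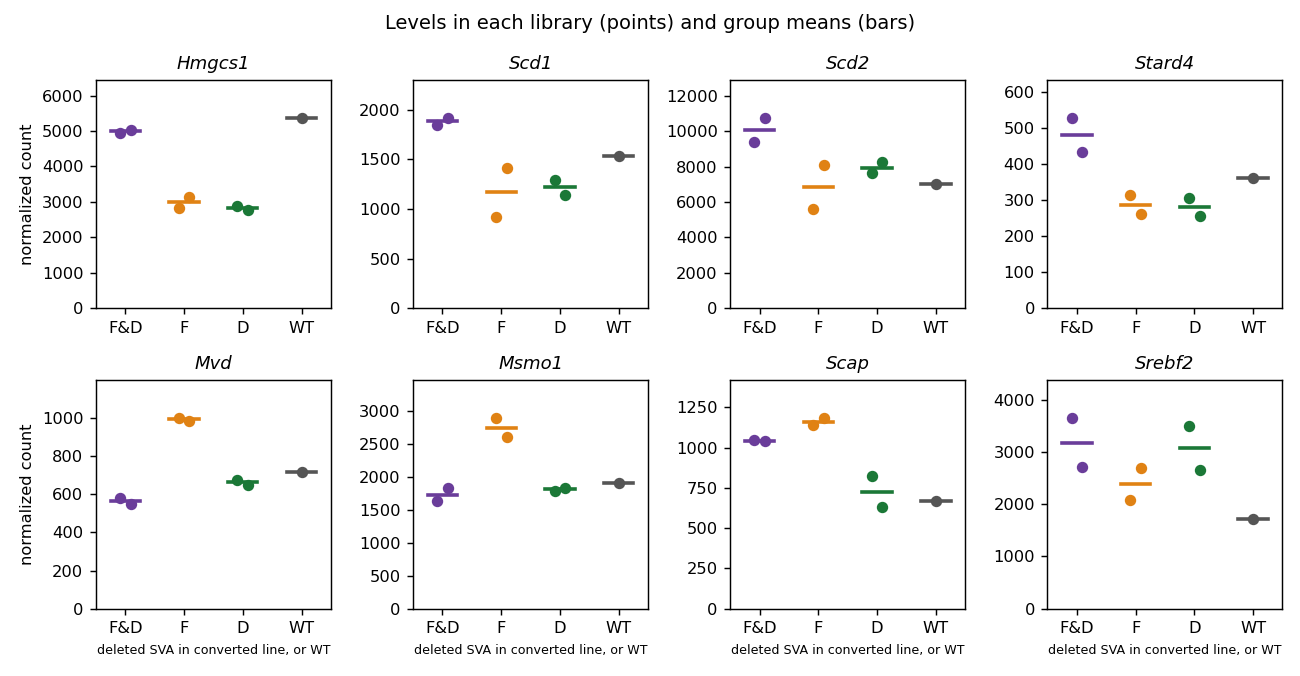
Normalized counts of 8 genes in conv-dSVA_F&D, conv-dSVA_F, conv-dSVA_D and the wild type (WT), 1 point per library and a bar at each mean, with axes from 0. Hmgcs1 separates conv-dSVA_F&D and the wild type from the lines with a single deletion, Mvd and Msmo1 are highest in conv-dSVA_F, and Srebf2 is lowest in the wild type.

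The fatty acid genes had 0 of 5 called in any comparison by limma or edgeR. The desaturases were the exception in size, not in the limma call. Scd1, the stearoyl-CoA desaturase of liver and fat, had 1850 and 1920 normalized counts in the conv-dSVA_F&D libraries, 922 and 1416 in those of conv-dSVA_F, 1295 and 1144 in those of conv-dSVA_D, and 1539 in the wild type. Both conv-dSVA_F&D libraries were above all others, by 0.72 ± 0.19 over conv-dSVA_F (adjusted p = 0.064) and 0.63 ± 0.19 over conv-dSVA_D (adjusted p = 0.101). DESeq2 called both differences (adjusted p = 0.0114 and 0.0279).

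Scd2, a related desaturase, had 9412 and 10775 normalized counts in the conv-dSVA_F&D libraries, 5618 and 8104 in those of conv-dSVA_F, 7637 and 8258 in those of conv-dSVA_D, and 7016 in the wild type. Both conv-dSVA_F&D libraries were again the highest (0.58 ± 0.16 over conv-dSVA_F, adjusted p = 0.0823 in limma, 0.0176 in DESeq2). Without conv-dSVA_F replicate 2, the differences over conv-dSVA_F were 1.03 for Scd1 and 0.84 for Scd2. That fit leaves replicate 1 alone in its line, the lowest of the 7 libraries for both genes (922 against 1416, and 5618 against 8104). Scd1 and Scd2 share stretches of near-identical sequence, so reads could be split between them.

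Acly ranged between 10400 and 14067 normalized counts, Fasn, the fatty acid synthase, between 9298 and 14759, and Acaca, the acetyl-CoA carboxylase, between 1033 and 1457. All 5 fatty acid genes were higher on average in conv-dSVA_F&D than conv-dSVA_D (0.11 to 0.63) and than in conv-dSVA_F (0.04 to 0.72), while none of Acly, Fasn and Acaca came near the threshold among the converted lines. Fasn was lowest in the wild type (0.42 ± 0.16 for converted over wild type, adjusted p = 0.201). Acaca has a near-identical copy, Gm5182.

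Stard4, a sterol transfer protein gene and SREBP target on chromosome 18, had 529 and 435 normalized counts in the conv-dSVA_F&D libraries, 313 and 262 in those of conv-dSVA_F, 307 and 257 in those of conv-dSVA_D, and 361 in the wild type. Both conv-dSVA_F&D libraries were the highest (0.77 ± 0.21 over conv-dSVA_D, adjusted p = 0.0784, and 0.74 ± 0.21 over conv-dSVA_F, adjusted p = 0.0793, both passing in DESeq2 at 0.0299 and 0.0348). With chromosome medians set equal the differences were 0.49 (adjusted p = 0.348) and 0.44 (adjusted p = 0.411). The higher of its conv-dSVA_F&D values came from replicate 1, the library whose chromosome 18 median was not raised.

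**Figure D4:**
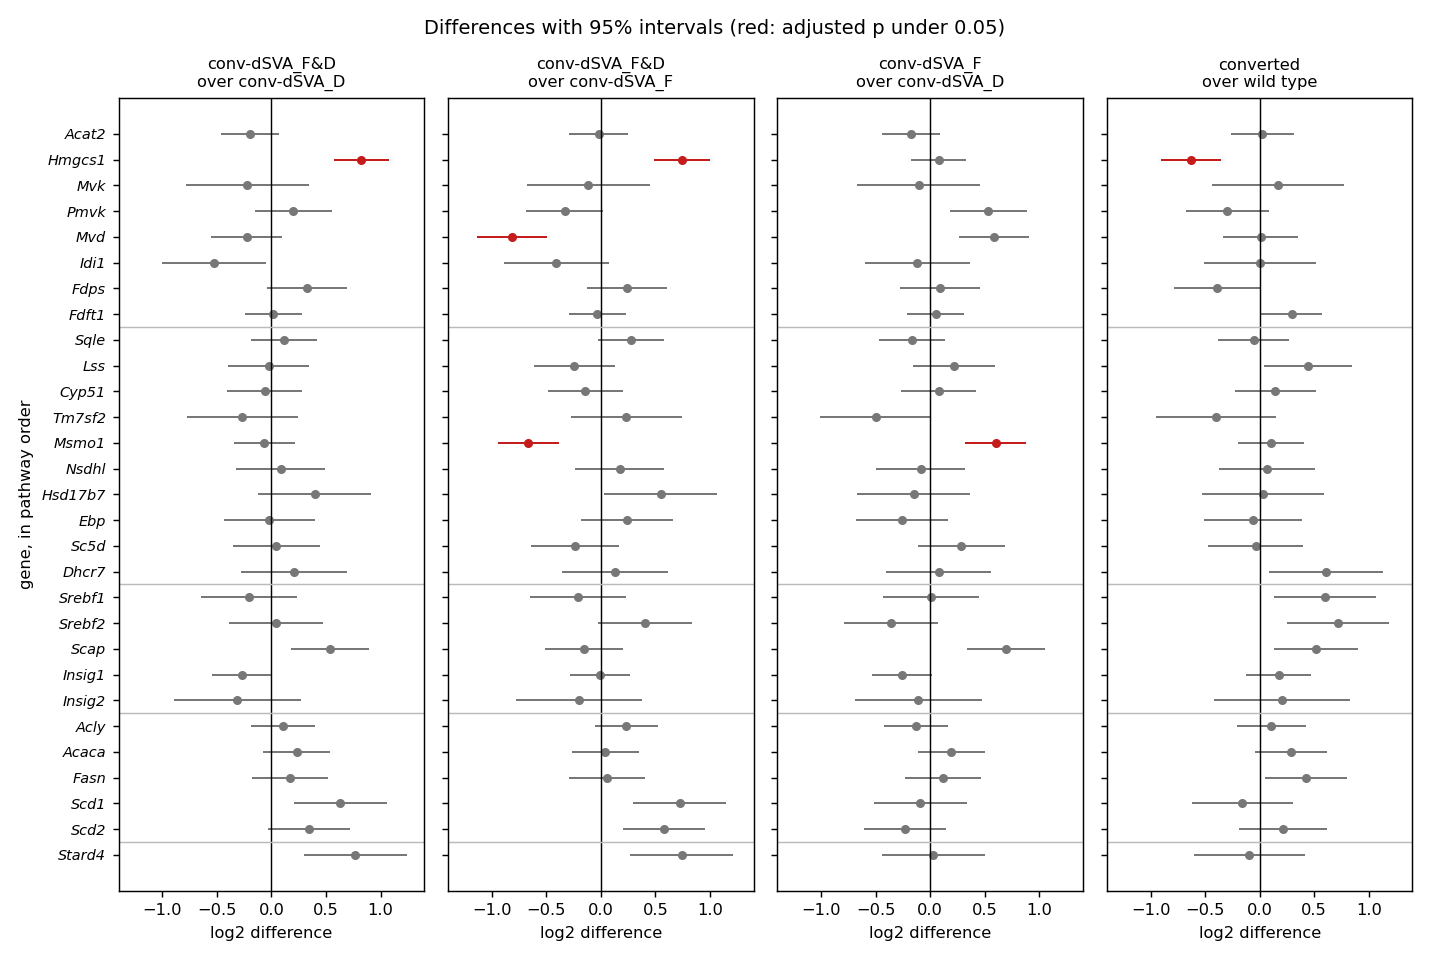
Log2 differences with 95% intervals for the 29 genes in 4 comparisons, genes in pathway order from top to bottom, red where the limma adjusted p is under 0.05. The red points are Hmgcs1 in 3 panels, Mvd in 1 and Msmo1 in 2, and most other intervals cross 0.

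Other genes of sterol metabolism were described from 6 further lists with 73 genes, of which 69 were tested. Limma called 5 of them between conv-dSVA_F&D and conv-dSVA_D, 3 between conv-dSVA_F&D and conv-dSVA_F, 1 between conv-dSVA_F and conv-dSVA_D and 1 between converted and wild type, against 3.16%, 3.92%, 1.35% and 1.15% of all tested genes. The edgeR counts were 4, 3, 1 and 1. The other sterol pathway and SREBP2 target genes, 11 tested of 12, had 0 calls in limma and edgeR, with 1 to 2 at an unadjusted p under 0.05, and DESeq2 called Npc1, a gene of sterol export from lysosomes, between conv-dSVA_F&D and conv-dSVA_D.

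In the isoprenoid branch, which attaches the products of Fdps and its partners to proteins, Rabggtb and Fntb were higher in conv-dSVA_F&D than conv-dSVA_D. Rabggtb, the catalytic subunit of a Rab prenyltransferase, had 2864 and 2914 normalized counts in the conv-dSVA_F&D libraries, 2451 and 2073 in those of conv-dSVA_F, 1597 and 1696 in those of conv-dSVA_D, and 3560 in the wild type. It was higher in conv-dSVA_F&D than conv-dSVA_D (0.81, adjusted p = 0.0143) and lower in converted lines than in the wild type (-0.69, adjusted p = 0.0439). Fntb, the farnesyltransferase beta subunit, differed by 0.68 in the first comparison (adjusted p = 0.043).

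From the lists of lipid synthesis and sterol trafficking, Lpin1, a phosphatidate phosphatase gene, Elovl6, a fatty acid elongase gene, and Gramd1b, a sterol carrier gene, were higher in conv-dSVA_F&D than conv-dSVA_D by 0.67 (adjusted p = 0.0408), 0.48 (0.0495) and 0.84 (0.0318). The Elovl6 call was lost in edgeR. Abca1, the sterol exporter, was higher in conv-dSVA_F than conv-dSVA_D (1.84, adjusted p = 0.030). It had 99.8 and 90.5 normalized counts in the conv-dSVA_F&D libraries, 220 and 170 in those of conv-dSVA_F, 59.5 and 47.4 in those of conv-dSVA_D, and 134 in the wild type.

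Erlin2 and Fnta, both called lower in conv-dSVA_F&D than conv-dSVA_F, lie on chromosome 8, as Mvd and Msmo1 do. Erlin2 acts in the degradation of proteins of the endoplasmic reticulum, and Fnta encodes the subunit shared by protein prenyltransferases. Their log2 differences were -0.75 (adjusted p = 0.0183) and -0.84 (0.043). With chromosome medians set equal they were -0.21 (adjusted p = 0.348) and -0.31 (0.282). In bulk RNA, fewer cells of a kind and less RNA per cell cannot be told apart for any of these genes.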

How the data were processed

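Stranded total RNA libraries of 7 of the 10 samples were analysed, and the pre-conversion and both striatal samples were not analysed here. The deposited signal is a table of normalized counts, which per its values are gene counts that the authors divided by 1 size factor per library. The tools listed in the submitters' processing notes, without roles, are featureCounts 1.6.3, STAR 2.7.3, Trimmomatic 0.36, DESeq2, Picard 2.18.20 and deepTools 3.1.0, with build mm10. Neither the annotation nor the strand setting is given in the sources used here. Dividing by the value of 1 read, whole reads were recovered, with 100% of values within 0.1 read of a whole number.

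The main test was limma 3.58.1 (R 4.3.3) with a variance trend on log2(normalized count + 1), with 1 mean for each of the 4 groups and Benjamini-Hochberg adjustment over all 15240 genes with a mean of at least 10. Tests were two-sided with a threshold of 0.05. A positive difference means higher in the first-named group, errors are standard errors, and adding 1 shrinks the differences of low genes. The single wild-type library is assumed to vary like the others. edgeR 4.0.16 and DESeq2 1.42.0 were run on the recovered reads as alternatives, and edgeR made the same calls among the 29 genes. The code was checked on simulated data. Positions are from GENCODE M21 (GRCm38), promoters from RefSeq (GRCm38.p6), and near-identical copies are transcripts aligned by blastn 2.17.0 over at least 500 bases at 90% identity or more.

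Every listed gene is accounted for, while some genes of the further lists are not reported here. By rule, values in every library are given for called genes and for Srebf1, Srebf2, Scap, Insig1 and Insig2, chromosome-equalised values for genes on chromosomes 8 and 18, ranges for the rest, and up to 4 called genes per further list and comparison. Library values of Idi1, Fdps, Hsd17b7, Dhcr7, Scd1, Scd2, Stard4, Rabggtb and Abca1, and the naming of Npc1, were chosen after the values were seen. The members, lists and tests were chosen with earlier results of these data known.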

Additional observations from a re-analysis of the deposited data

How the results depend on the processing

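The number of listed genes called by limma was 1 between conv-dSVA_F&D and conv-dSVA_D, 3 between conv-dSVA_F&D and conv-dSVA_F, 1 between conv-dSVA_F and conv-dSVA_D, 1 between converted and wild type, and 3 for any difference among the converted lines. Without a variance trend all 5 counts were 0 (4, 6, 4, 3 and 6 at an unadjusted p under 0.05). Without a filter on low values they were 0 except against the wild type (9, 8, 6 and 6 at an unadjusted p under 0.05). DESeq2 gave 3, 6, 3, 2 and 7. With chromosome medians set equal there was 1 call between conv-dSVA_F&D and conv-dSVA_F, 0 between conv-dSVA_F and conv-dSVA_D, 0 against the wild type and 1 for any difference. Between conv-dSVA_F and conv-dSVA_D a pseudocount of 0.5 gave 0 and a fit of only these libraries gave 3. Against the wild type, each side as 1 group gave 0, and a fit of only both sides is the main fit itself. Leaving out 1 library at a time gave 0 to 1, 0 to 3, 0 to 3, 0 to 2 and 0 to 4 calls. Without conv-dSVA_F replicate 2 the 3 calls between conv-dSVA_F&D and conv-dSVA_F were Hmgcs1, Scd1 and Scd2, with Mvd and Msmo1 lost. The median difference of the 29 genes then ranged between 0.0196 and 0.114 for conv-dSVA_F&D against conv-dSVA_D (0.114 without conv-dSVA_D replicate 1), between -0.0625 and 0.244 against conv-dSVA_F (without its replicates 1 and 2), between -0.0981 and 0.155 for conv-dSVA_F against conv-dSVA_D and between 0.0525 and 0.0977 against the wild type. edgeR, TMM scaling, a pseudocount of 5 and a minimum mean of 50 left each count within 1.5 times. The cause of these shifts was not tested. Over all genes, limma called 482, 597, 205, 175 and 850 in the same 5 comparisons and DESeq2 1041, 1211, 729, 857 and 1887. Leaving out 1 library at a time gave 0 to 765, 0 to 865, 0 to 485, 2 to 599 and 9 to 1309. There were at most 1 without a variance trend, and without the filter 0 except 906 against the wild type, where edgeR gave 305, a pseudocount of 5 gave 275 and each side as 1 group 0. Equal chromosome medians left 179 between conv-dSVA_F&D and conv-dSVA_F and 547 for any difference. Fits of only both sides gave 246, 200 and 504 between pairs of converted lines.

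Of 1943 recomputed pairwise differences of the 29 genes, 1830 kept direction and side of the threshold, 37 lost a call, 17 gained 1 and 59 that were never called changed sign. No called difference reversed, and the F tests are not part of these counts. No paired analysis was possible because the replicate numbers follow accession order and pair no libraries. Every listed gene had at least 147 reads in each library. With 2 libraries a line, standard errors among converted lines were 0.11 to 0.26 log2. Changes of single genes well above these errors could also be missed. Stard4, at 0.77 ± 0.21 between conv-dSVA_F&D and conv-dSVA_D, was not called by limma.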

Other observations

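Libraries of the same line often differed in the same direction for most of the 29 genes. The share of all tested genes doing so was not counted, so this is not shown to be particular to the list. In conv-dSVA_F, 23 of the 29 genes were higher in replicate 2 than in replicate 1, with a median log2 difference of 0.18, and replicate 1 was the lowest of the 7 libraries for 10 genes. In conv-dSVA_D, 22 were higher in replicate 1. In conv-dSVA_F&D, 19 were higher in replicate 2. The widest gaps between libraries of a line were 0.739 for Insig2 in conv-dSVA_F&D, 0.770 for Mvk in conv-dSVA_F and 0.401 for Srebf2 in conv-dSVA_D, all on the log2 scale.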
